A study of Mus musculus with 9 samples.

Results

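Gm2a and Scpep1 encode soluble proteins of the lysosome, the acidic compartment in which cells break down lipids, sugars and proteins. They were taken from the deposited expression table by gene name, 2 of the 99 genes analysed here, after earlier results of these data had shown both among the genes that differed between groups. Their levels, fold changes and place among the other genes in every comparison are therefore a description, with no test of their own, and no p-value is given for them. Whether each passed the threshold of a fit over all tested genes is stated beside the share of those genes called. Polyadenylated RNA was sequenced from c-Kit+ mouse bone marrow cells, the sorted population rich in haematopoietic stem and progenitor cells. The 9 libraries form 3 groups of 3, labelled NPC, NC and WT, and the series describes CMML mice lacking Piezo1 conditionally (cKO), CMML mice and control mice. CMML is chronic myelomonocytic leukaemia, and Piezo1 encodes a mechanically gated cation channel. The codes are not spelled out; reading NPC as CMML with the knockout and NC as CMML follows their letters, so the codes are kept. The alleles that drive the leukaemia, the Cre driver, the strain and the age are not stated in the labels, and neither is whether the 3 libraries of each group come from different animals. Differences are set against the variation among a group's libraries, and that variation could be technical only.

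GM2 activator, the product of Gm2a, is a lipid transfer protein rather than an enzyme. It lifts the ganglioside GM2 out of lysosomal membranes and presents it to beta-hexosaminidase A, and in humans its loss causes the AB variant of GM2 gangliosidosis. Scpep1 (serine carboxypeptidase 1, also called retinoid-inducible serine carboxypeptidase) belongs to the same peptidase family as lysosomal cathepsin A and removes amino acids from the carboxyl end of peptides. Granules of myeloid cells share many proteins with lysosomes, and many lysosomal genes are under the control of the transcription factors TFEB and TFE3. The annotation deposited with the table places Gm2a in the lysosome and in sphingolipid metabolism, and also among the proteins released from azurophil granules. For Scpep1 that annotation gives carboxypeptidase activity and the extracellular region but no lysosomal term, so the lysosomal label rests on general knowledge of the protein.

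Both genes lie on mouse chromosome 11. On GRCm39, as the table gives it, Gm2a (ENSMUSG00000000594) runs from 54988941 to 55003855 on the plus strand, and Scpep1 (ENSMUSG00000000278) from 88814846 to 88846291 on the minus strand. The table lists 1 protein-coding transcript for each. Their promoters are shown as context, since both genes had their lowest mean level in WT. The windows run from 250 bases before to 50 bases after the start of each gene, are taken from RefSeq on GRCm38.p6, an earlier build than that of the table, and read 5′ to 3′ on the strand of the gene. The Gm2a window lies at chr11:55097735-55098034 on the plus strand and the Scpep1 window at chr11:88955393-88955692 on the minus strand of that build. Capitals mark CCGCCC, the GC box, searched on both strands.
Gm2a: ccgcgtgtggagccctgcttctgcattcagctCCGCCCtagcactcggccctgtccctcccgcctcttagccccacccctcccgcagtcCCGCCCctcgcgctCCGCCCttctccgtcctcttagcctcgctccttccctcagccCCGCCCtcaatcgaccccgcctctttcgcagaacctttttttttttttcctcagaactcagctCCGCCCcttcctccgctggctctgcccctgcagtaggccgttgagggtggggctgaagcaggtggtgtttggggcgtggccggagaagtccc
Scpep1: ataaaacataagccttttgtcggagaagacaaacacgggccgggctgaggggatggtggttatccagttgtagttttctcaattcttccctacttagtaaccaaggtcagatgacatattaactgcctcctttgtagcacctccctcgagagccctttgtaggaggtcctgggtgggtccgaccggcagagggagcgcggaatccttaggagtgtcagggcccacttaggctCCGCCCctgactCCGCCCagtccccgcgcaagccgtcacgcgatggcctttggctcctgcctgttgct
The Gm2a window holds 5 GC boxes and the Scpep1 window holds 2, none of them overlapping another. Of 32851 mouse promoter windows of the same length, 35.7% hold at least 1, 19.5% at least 2 and 2.71% at least 5. The Gm2a window is 65.7% G or C and the Scpep1 window 56.3%, against a median of 52.7% over all windows. CACGTG, the core of the element that TFEB and TFE3 bind, and TATAAA were also searched on both strands. Neither is in either window, and they are in 7.15% and 13.6% of all windows. These matches are letters in a short window, not sites of binding.

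Gm2a was the more abundant of the pair in every library. Levels are given in FPKM, which divides the fragments of a gene by the length of its transcript and by the size of the library, so that genes of different length can be set side by side. Gm2a stood at 33.5, 33.4 and 34.4 FPKM in the NPC libraries (replicates 1 to 3, as in each such list), at 31.5, 30.2 and 31.0 FPKM in NC, and at 19.4, 20.1 and 20.4 FPKM in WT. The 3 groups did not overlap, and every WT library lay far below every library of the other groups. The order of the group means was NPC (33.8 ± 0.572 FPKM), NC (30.9 ± 0.668) and WT (20.0 ± 0.529; SD, n = 3 each). The lowest NPC library lay 1.90 FPKM above the highest NC library, and the lowest NC library lay 9.72 FPKM above the highest WT library. Ordered by FPKM among the 99 genes, Gm2a held place 11 or 12 in the NPC libraries, place 14 in all 3 NC libraries and place 19 in all 3 WT libraries. Non-overlap in either direction held for 58.1% of the 62 tested genes (1 FPKM in at least 3 libraries) in NC against WT. It held for 61.3% in NPC against WT and for 27.4% in NPC against NC.

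Scpep1 varied over a narrower range. It stood at 13.2, 11.9 and 13.5 FPKM in the NPC libraries, at 13.1, 13.4 and 12.8 FPKM in NC, and at 11.9, 11.4 and 11.4 FPKM in WT. The means were 12.8 ± 0.848 FPKM in NPC, 13.1 ± 0.299 in NC and 11.6 ± 0.294 in WT (SD, n = 3 each). All NC libraries lay above all WT libraries, by at least 0.871 FPKM, in a comparison where the groups did not overlap for 58.1% of tested genes. NPC and NC overlapped, and their means differed by less than the SD of the NPC libraries. NPC replicate 2, at 11.87 FPKM and the lowest of its group, lay just under WT replicate 1, at 11.89 FPKM. Its place among the 99 genes moved only between 29 and 32 over all libraries.

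**Figure D1:**
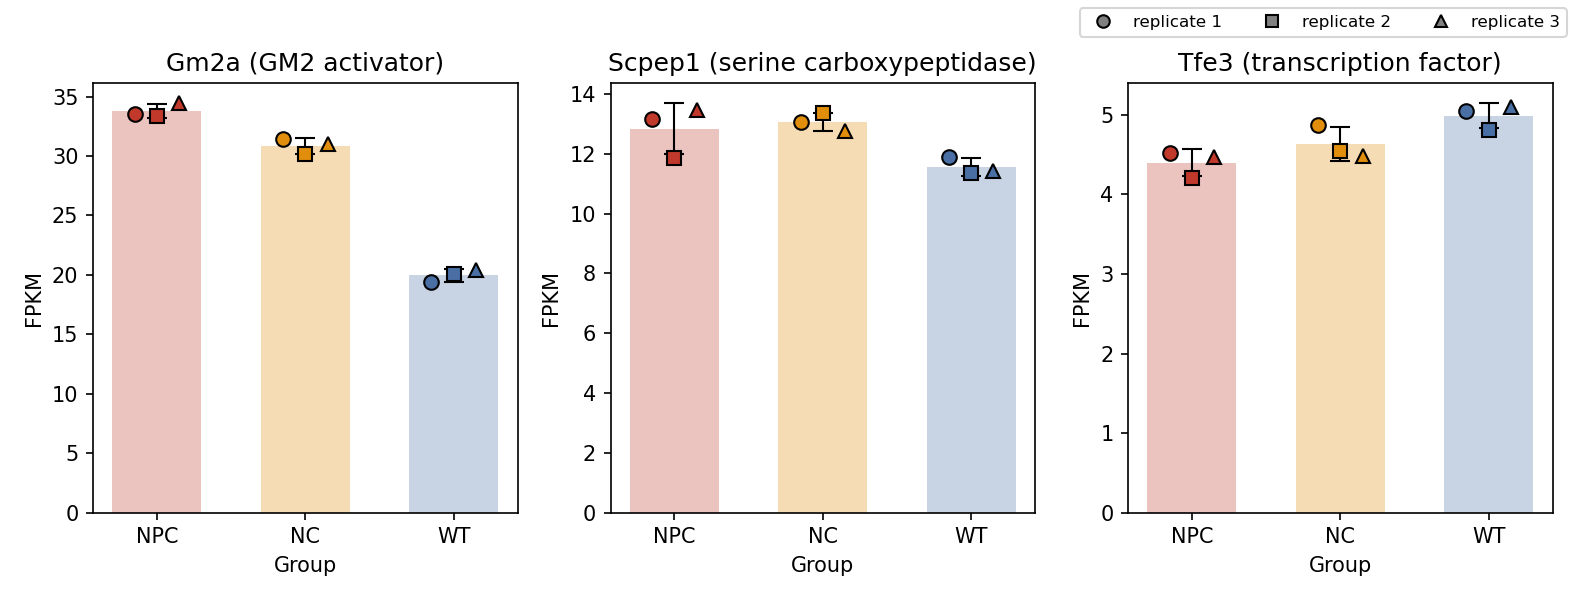
FPKM of Gm2a, Scpep1 and Tfe3 (vertical axes, each from 0) in the NPC, NC and WT groups; points are the 3 libraries of a group, bars their mean and error bars the SD. Gm2a separates the 3 groups (means 33.8, 30.9 and 20.0 FPKM), Scpep1 is lowest in WT with 1 NPC library at the WT level, and Tfe3 has its highest mean in WT.

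The counts behind these levels were large enough for small differences to be seen. Gm2a had 11065 to 12226 estimated counts per NPC library, 9920 to 11453 per NC library and 6130 to 7027 per WT library. Scpep1 had 2000 to 2439, 2234 to 2416 and 1911 to 2022 counts in NPC, NC and WT libraries. Low values in the table gather at 4, so 1 fragment is taken to be worth about 4 counts. On that inferred scale, counting alone gives a coefficient of variation of 1.85% for Gm2a in NPC, 1.92% in NC and 2.45% in WT, and the observed values were 1.69%, 2.16% and 2.65%. For Scpep1 counting gives 4.21%, 4.14% and 4.52% in NPC, NC and WT. The observed values were 6.60% in NPC, 2.29% in NC and 2.54% in WT. With 3 libraries a group these observed values are imprecise. The spread of Gm2a lay close to counting error in every group. That of Scpep1 exceeded it in NPC, where replicate 2 was low, and lay below it in NC and WT. The counting coefficients cover counting error only, and duplicate reads were not told apart. Over the tested genes, pairs of libraries within a group varied more than counting gives on that scale. The excess ran from 1.17 times the counting variance for NC replicates 2 and 3 to 3.22 times for NPC replicates 1 and 3.

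The comparison of NC with WT asked, if the codes are read as above, how c-Kit+ cells of leukaemic mice differ from control cells. Gm2a was 1.55-fold higher in NC, with a log2 fold change of 0.63 ± 0.04 (SE; 95% confidence interval 0.55 to 0.70). Scpep1 was 1.13-fold higher, at 0.18 ± 0.06 (0.05 to 0.30). Both values come from edgeR's quasi-likelihood fit of all 9 libraries over the 62 genes that reached 1 FPKM in at least 3 libraries, among which both members were tested. Both passed its threshold, an adjusted p of 0.05 over the 62 genes. That fit called 27.4% of the tested genes higher in NC, the groups did not overlap for 58.1%, and the median log2 fold change of all tested genes was 0.01. Since the members were picked with results of these data known, nothing is read from their count. Among the 62 fold changes, ordered from the highest, Gm2a held place 5 and Scpep1 place 16. Scpep1 did not pass without NC replicate 2 (0.16) or without WT replicate 2 (0.16).

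In NPC against NC, which asked how the Piezo1 knockout alters expression within the leukaemic background if the codes are read as above, Gm2a was a little higher and Scpep1 was not measurably different. The log2 fold change of Gm2a was 0.13 ± 0.04 (SE; 0.05 to 0.20), or 1.09-fold. That of Scpep1 was -0.03 ± 0.06, with a 95% confidence interval of -0.15 to 0.10, which spans levels from 0.902 to 1.07 times those of NC. Of the members, Gm2a alone passed the threshold, in a fit that called 6.45% of tested genes higher and 14.5% in either direction; the groups did not overlap for 27.4%. Gm2a held place 9 of the 62 fold changes and Scpep1 place 34. Gm2a was picked with results of these data known, and its value did not pass when NPC replicate 3 (0.11), NC replicate 2 (0.11) or NC replicate 3 (0.13) was left out. It also did not pass when NC replicates 2 and 3, the pair that differed least from each other, were averaged into 1 library (0.12). The sign of the Scpep1 value was not fixed by the data: without NPC replicate 2 it was 0.03, and under median of ratios scaling 0.0069.

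NPC against WT used the same WT libraries as the NC comparison and the same NPC libraries as the knockout comparison, so the values are set side by side and not counted as separate support. Gm2a was 1.69-fold higher in NPC, with a log2 fold change of 0.76 ± 0.04 (SE; 95% confidence interval 0.68 to 0.83). Scpep1 was 1.11-fold higher, at 0.15 ± 0.06 (0.03 to 0.28). Both passed the threshold in a fit that called 33.9% of tested genes higher and in which the groups did not overlap for 61.3%. Gm2a held place 5 of the 62 fold changes and Scpep1 place 17. The Scpep1 groups overlapped, and its value did not pass without NPC replicate 1 (0.13), NPC replicate 3 (0.12), WT replicate 2 (0.14) or WT replicate 3 (0.14), nor when the counts summed over the table served as library size (0.11).

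**Figure D2:**
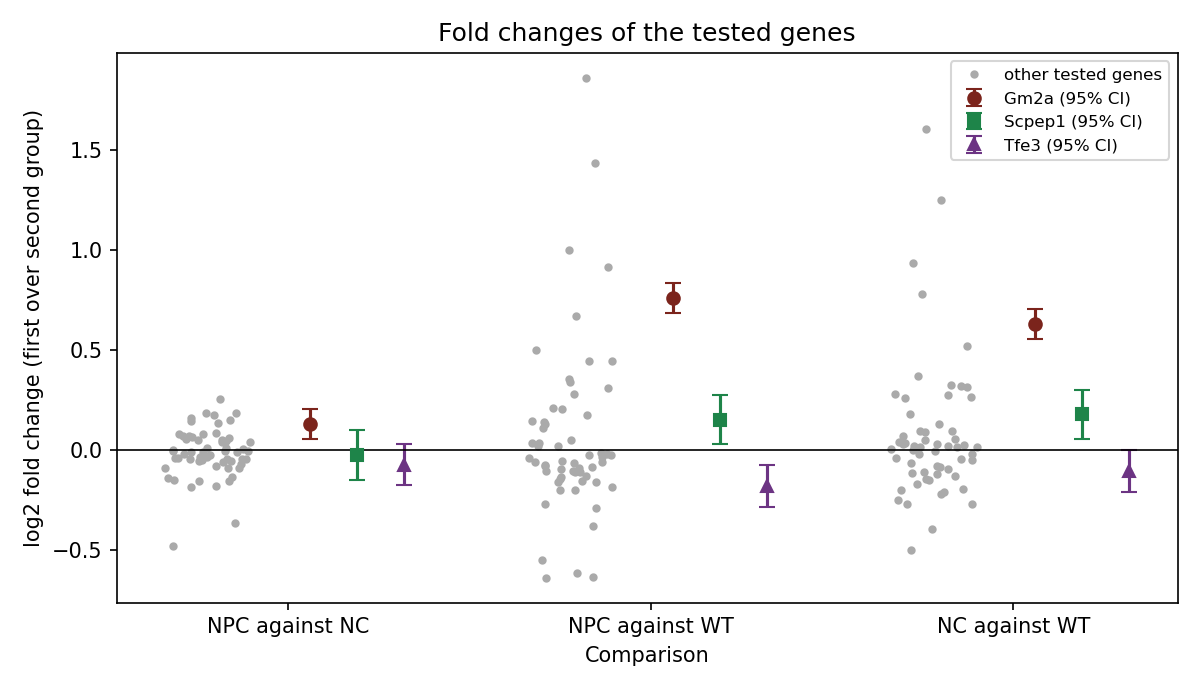
Log2 fold change (vertical axis, first-named over second-named group) in the 3 comparisons; grey points are the other tested genes, and coloured symbols are Gm2a, Scpep1 and Tfe3 with 95% confidence intervals from the edgeR fit. Gm2a lies above 0 in each comparison (0.13, 0.76 and 0.63 from left to right), and the interval of Scpep1 includes 0 for NPC against NC.

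The pair did not keep a fixed proportion. The ratio of Gm2a to Scpep1 FPKM within a library does not depend on how deeply the library was sequenced. It was 2.55, 2.81 and 2.56 in the NPC libraries, 2.41, 2.26 and 2.43 in NC, and 1.63, 1.77 and 1.79 in WT. The 3 groups did not overlap, with means of 2.64 ± 0.150 in NPC, 2.37 ± 0.0945 in NC and 1.73 ± 0.0865 in WT (SD, n = 3 each). The mean log2 ratio differed by 0.45 for NC minus WT, by 0.16 for NPC minus NC and by 0.61 for NPC minus WT. The highest NPC ratio, in replicate 2, falls in the library with the lowest Scpep1 level, and without that library the NPC minus NC difference was 0.11. This ratio was computed after the values of both genes were known and has no test. It restates the levels of Gm2a and Scpep1 given above, and how many other gene pairs have ratios that separate the groups was not counted.

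**Figure D3:**
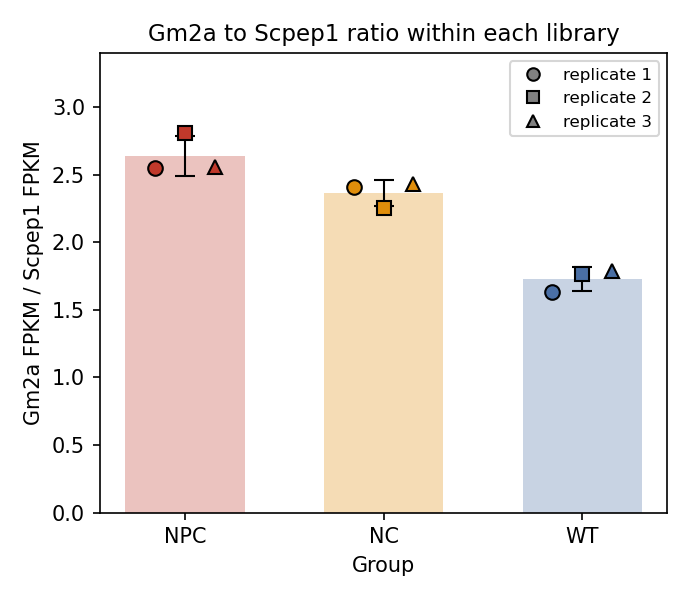
Gm2a FPKM divided by Scpep1 FPKM (vertical axis, from 0) within each NPC, NC and WT library; points are libraries, bars the mean and error bars the SD of 3. The NPC libraries lie between 2.55 and 2.81, the NC libraries between 2.26 and 2.43 and the WT libraries between 1.63 and 1.79.

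Other genes of the lysosome were few among the 99 genes analysed here. Of 163 genes on 4 lysosomal lists, covering hydrolases and activators, proteases, membrane proteins and the proton pump, and regulators and sorting, 3 were among these 99 and all 3 were tested: Gm2a, Scpep1 and Tfe3. The 18 genes on a list for ganglioside and sphingolipid synthesis, beta-hexosaminidase and cathepsin A were not analysed here. Tfe3 encodes the transcription factor TFE3, which switches on lysosomal genes when it enters the nucleus. It stood at 4.53, 4.20 and 4.47 FPKM in the NPC libraries, at 4.88, 4.55 and 4.48 FPKM in NC, and at 5.05, 4.82 and 5.11 FPKM in WT. All NPC libraries lay below all WT libraries, and the NC libraries overlapped both. Non-overlap of NPC and WT, in either direction, held for 61.3% of tested genes.

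Mean Tfe3 levels were lower in NPC and NC than in WT, and mean Gm2a levels were higher in NPC and NC than in WT. Tfe3 fell in NPC relative to WT, with a log2 fold change of -0.18 ± 0.05 (SE; edgeR adjusted p = 0.00261), or 0.882 times the WT level, in a fit that called 30.6% of tested genes lower and 64.5% in either direction. This call held in all 20 alternatives that could be run. In NC against WT its log2 fold change was -0.11 ± 0.05 and did not pass (edgeR adjusted p = 0.0781), though it passed in 6 of the 20 alternatives; 24.2% of tested genes were called lower there and 51.6% in either direction. In NPC against NC it was -0.08 ± 0.05 and did not pass (edgeR adjusted p = 0.334), where 8.06% were called lower. RNA level does not show how much TFE3 protein is in the nucleus. One further gene, Clcn4, which encodes a chloride-proton exchanger of endosomal membranes, carries a lysosomal term in the table's own annotation, in which the terms of 28 genes were not used here. It was chosen by that annotation and not by a list. Clcn4 averaged 6.42 ± 0.345 FPKM in NPC, 6.74 ± 0.329 in NC and 6.33 ± 0.214 in WT (SD, n = 3 each), the groups overlapped, and it passed in none of the 3 comparisons in the fit of all 9 libraries, though it did for NC against WT when only the 6 libraries of those groups were fitted.

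Levels of markers of blood cells that a c-Kit sort could also hold are given as a description. Of 73 markers on the blood cell lists, 4 were among the genes analysed here and none of these was at 0. The neutrophil gene Itgb2l, 1 of 15 on its list, stood at 46.9 to 49.0 FPKM in NPC, 43.4 to 47.9 in NC and 34.3 to 35.5 in WT. Itgb2 and Clec10a were 2 of 15 genes on the list for monocytes, macrophages and dendritic cells. Itgb2 encodes an integrin subunit of leukocytes in general, so it is not particular to those cells. The summed level of the 2 genes was 115.4 to 117.8 FPKM in NPC, 108.8 to 115.0 in NC and 90.2 to 94.0 in WT. Nearly all of that sum is Itgb2: Clec10a alone stood at 1.17 to 1.65 FPKM in NPC, 1.11 to 1.32 in NC and 0.865 to 1.22 in WT, and its groups overlapped. In the edgeR fit of all 9 libraries Clec10a passed the threshold for NPC against WT alone, at a log2 fold change of 0.45. That call was lost without NPC replicate 3, WT replicate 2 or WT replicate 3. The T-cell kinase gene Lck, 1 of 11 on its list, stood at 4.82 to 6.00 FPKM in NPC, 4.41 to 4.91 in NC and 2.96 to 3.52 in WT. Itgb2l, Itgb2 and Lck each had every WT library below every NPC and NC library. Counting either direction, the groups did not overlap for 61.3% of tested genes in NPC against WT and for 58.1% in NC against WT. The edgeR fit called 33.9% and 27.4% of tested genes higher than WT in the same comparisons. How many genes had all WT libraries lowest in both comparisons was not counted, so nothing is read from the order of the groups in these markers. Kit and the other 10 stem and progenitor markers were not analysed here, so the sorted identity of the cells could not be checked. In RNA from a bulk of cells, more cells of a type and more RNA per cell cannot be told apart, and the part that a shift in cell types has in the Gm2a and Scpep1 levels was not tested.

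The genes whose pattern over the 9 libraries was most like each member were found from the root mean square difference of log2(FPKM + 1), after the mean of each gene was subtracted. For Gm2a they were Haao, Lck and Sema4f, at 0.07, 0.12 and 0.13 on the log2 scale, against a median of 0.34 over the other tested genes. Haao, an enzyme gene of tryptophan breakdown, averaged 4.39 ± 0.467 FPKM in NPC, 4.00 ± 0.276 in NC and 2.33 ± 0.0630 in WT. Sema4f, a semaphorin gene, was low in all groups, at 1.07 ± 0.106, 1.02 ± 0.0491 and 0.532 ± 0.0767 FPKM in NPC, NC and WT (SD, n = 3 each). For these low genes the added 1 shrinks differences on this scale.

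For Scpep1 the nearest genes were Gnai3, Dazap2 and Acvr1b, at 0.06 each, against a median of 0.12 over the other tested genes. Gnai3, a G-protein subunit gene, averaged 63.2 ± 0.990 FPKM in NPC, 63.1 ± 2.06 in NC and 57.7 ± 0.840 in WT. Dazap2 averaged 132.0 ± 3.71, 127.6 ± 2.72 and 119.5 ± 3.69 FPKM in NPC, NC and WT. Acvr1b, an activin receptor gene, averaged 6.55 ± 0.488, 6.79 ± 0.458 and 5.68 ± 0.159 FPKM in the same groups (SD, n = 3 each). Like Scpep1, all 3 had their lowest mean in WT, which a choice by likeness favours. Gm2a and Scpep1 lay 0.26 from each other. That is below the median distance of the other tested genes from Gm2a (0.34) and above their median distance from Scpep1 (0.12). Because Scpep1 varied little, genes that varied little come out near it, and likeness here is a description of 9 libraries that share 3 groups.

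**Figure D4:**
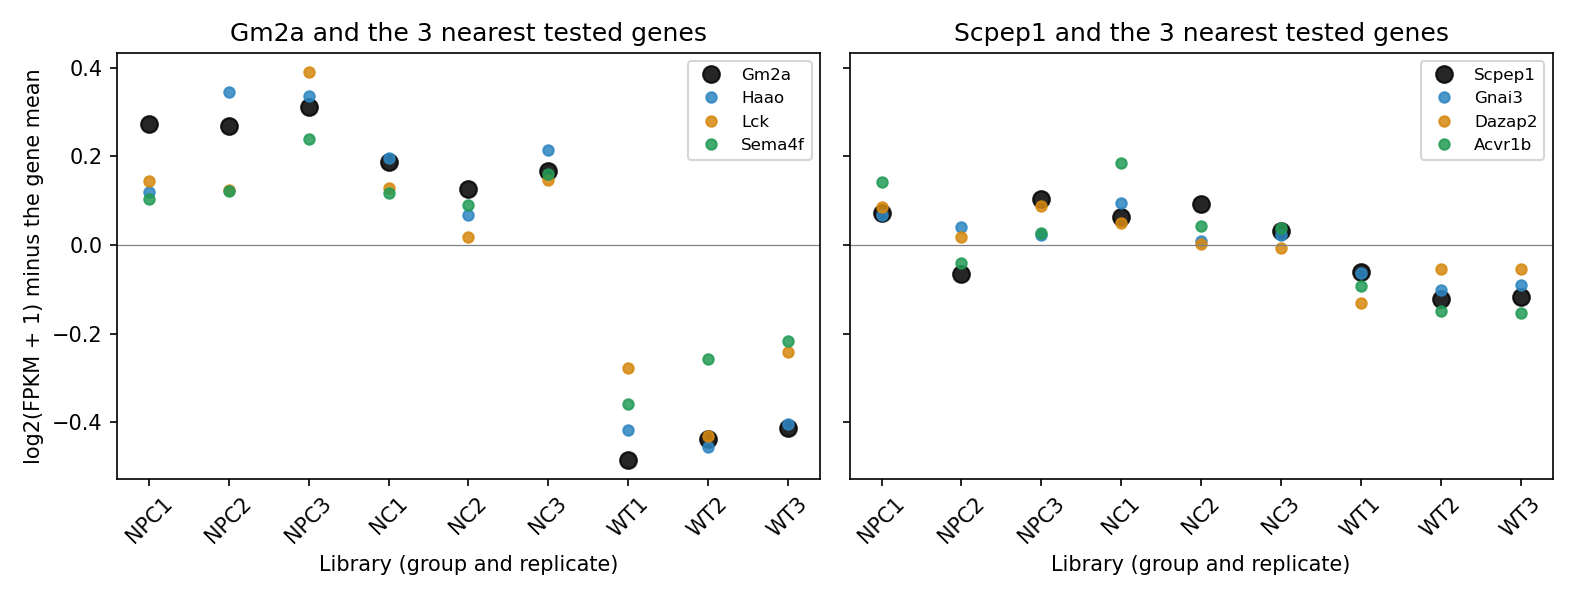
Log2(FPKM + 1) minus the mean of the gene over the 9 libraries (vertical axis) in each library, for Gm2a with Haao, Lck and Sema4f, and for Scpep1 with Gnai3, Dazap2 and Acvr1b; each point is 1 library. In the left panel all 4 genes lie below 0 in the 3 WT libraries and above 0 in the other 6, and in the right panel the points stay closer to 0 and NPC replicate 2 of Scpep1 lies below 0.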

How the data were processed

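Paired-end libraries that keep the strand were prepared from the polyadenylated RNA of c-Kit+ marrow cells, per the labels' protocols. The submitters' processing notes name GRCm39 and, with no role or order, StringTie 2.1.6, HISAT2 2.2.1 and cutadapt 1.9 among their tools. For the annotation release and the strand setting, the sources used here give nothing. Per gene and library, the authors deposited an FPKM value and an estimated count; the counts are whole numbers and not normalized. The 99 genes analysed here took 387039 to 469541 counts per library, which is not the depth. Depth came from dividing counts by FPKM in 61 genes (200 counts or more per library), where 100% of values lay within 1% of the fit. Implied totals, scaled by the lengths of 6 single-transcript genes in a GENCODE annotation of GRCm38, ran from 76613082 to 88424059 counts.

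The estimated counts went into a quasi-likelihood fit of all 9 libraries in edgeR 4.0.16 under R 4.3.3, with the implied depth as library size, no block, and Benjamini-Hochberg adjustment over the 62 genes with at least 1 FPKM in at least 3 libraries. The threshold was an adjusted p of 0.05, and tests were two-sided. The fit was also run on simulated counts. These were drawn from the kind of model that the fit assumes, with spreads estimated from these libraries, so they do not test that model. Members and lists were chosen with earlier results of these data known. The genes named are the members, the tested genes of the lysosomal, sphingolipid and marker lists named in the text, and the 3 genes nearest each member; Clcn4 and Trim25 were added after the data were seen. Correlations between the deviations of same-numbered libraries from their group means ran from -0.30 to 0.29. With 3 libraries a group these values neither show nor exclude a pairing, and none was assumed. Alternatives were DESeq2 1.42.0, limma 3.58.1 on log2(FPKM + 1) and log2(FPKM + 0.1), other scalings and filters, fewer libraries, a replicate block, counts divided by 4 and NC replicates 2 and 3 averaged. Promoter sequences are from RefSeq.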

Additional observations from a re-analysis of the deposited data

How the results depend on the processing

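Over 21 alternatives each, Gm2a kept its direction and its side of the threshold against WT, at 0.59 to 0.65 on the log2 scale for NC and 0.72 to 0.78 for NPC. The causes of the shifts below were not tested. For NPC against NC, Gm2a ranged from 0.11 to 0.14 with single libraries left out. Of the omissions of an NPC or NC library, 3 of 6 ended the call, and omitting a WT library left the value at 0.13. Gm2a was 0.12 with NC replicates 2 and 3 averaged, also not past the threshold. Scpep1 with single libraries left out ranged from 0.16 to 0.20 for NC against WT, from 0.12 to 0.20 for NPC against WT and from -0.061 to 0.027 for NPC against NC. With library size taken as the counts summed over the table, it was 0.11 for NPC against WT and did not pass. For NPC against NC it turned to 0.0070 with DESeq2 and 0.0069 with median of ratios scaling. The 9 genes called for NPC against NC became 14 with DESeq2, 4 with NC replicates 2 and 3 averaged and 3 to 15 with single libraries left out. That library size also turned Clcn4 for NPC against WT (-0.023), Trim25 for NC against WT (-0.0081) and Gnai3 for NPC against NC (-2.6e-05), and averaging turned Gnai3 (-0.012). With single libraries left out, Clcn4 ranged from -0.025 to 0.044 for NPC against WT, and for NPC against NC Gnai3 ranged from -0.016 to 0.028, Sema4f from -0.015 to 0.12 and Acvr1b from -0.11 to 0.0053. None of these passed the threshold in either sign. The replicate block, used only as an alternative, gave 31 genes for NC against WT, 9 for NPC against NC and 40 for NPC against WT. It changed no call for Gm2a or Scpep1. Where an omission leaves 2 libraries in a group, the spread is pooled over all groups. Scpep1 had fewer counts per library than Gm2a, at 1911 to 2439, and whether this bears on the shifts was not tested.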

Other observations

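Among the 26 genes of chromosome 11 analysed here, of which 14 were tested, the nearest to Scpep1 was Trim25, a gene for an E3 ligase of antiviral signalling, which lies on the plus strand 43.9 kb upstream of the start of the minus-strand gene Scpep1 on GRCm39. It averaged 24.0 ± 1.32 FPKM in NPC, 25.6 ± 0.342 in NC and 24.99 ± 0.791 in WT (SD, n = 3 each), and passed the threshold in none of the 3 comparisons with all libraries. Without NPC replicate 1 it passed for NPC against NC, at -0.14 on the log2 scale, and for NPC against WT, at -0.10, where it also passed with the counts summed over the table as library size, likewise at -0.10. It was chosen after the values were seen. No gene analysed here lay within 4 megabases of Gm2a.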
